A study of Mus musculus with 18 samples.

Results

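Spinal cord RNA of mice with experimental autoimmune encephalomyelitis (EAE, an animal model of multiple sclerosis) was compared across all genes with that of healthy mice. The comparison holds 12 of the 18 libraries of the study, chosen by their labels. The 6 control EAE libraries (replicates 1, 2, 9, 10, 17 and 18) came from EAE mice with the control treatment, and the 6 healthy libraries (3, 4, 11, 12, 19 and 20) from healthy mice with the control treatment. The other 6 libraries came from EAE mice given metformin. All mice were female, had a genotype labelled WT and carried Tmem119-Cre with RiboTag, in which Cre switches on a tagged form of Rpl22, a protein of the ribosome. The labels give no age, day of disease or clinical score, mention no step that isolated the tagged ribosomes, and do not say that replicates were separate animals. P-values therefore measure only the spread between these samples, which may be technical. Tmem119, whose regulatory sequence drives the Cre, is itself a gene of resting microglia. It ran from 928 to 1350 CPM (counts per 1000000, scaled by TMM factors; median 1040) in healthy libraries and from 240 to 363 CPM (median 338) in control EAE, without overlap.

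Microglia are macrophages that live in the brain and spinal cord. In EAE, T cells that recognise myelin enter the spinal cord together with blood monocytes, and microglia leave their resting state, take up myelin debris and present antigen. The activation genes that define this state are well known. The account below covers the whole transcriptome and gene families outside those lists: signalling enzymes, the cytoskeleton, transcription and RNA processing, metabolism, the secretory pathway, ubiquitin and cell death. In bulk RNA, fewer cells of a type and less RNA per cell cannot be told apart.

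In units of 1000000 gene counts, the 6 healthy libraries held 48 to 53.4 and those of control EAE 46.3 to 58.3. The first principal component of the 12 libraries held 81.7% of the variance and separated the groups (43.9 to 64.0 against -56.8 to -47.2). The second, with 9.41%, set control EAE replicate 10 (49.1) apart from the other 11 libraries (-24.2 to 8.2). Some calls and list values that changed without it are given with the result, but not all. The RNA decay median, for example, went from 0.01 to -0.07 and the RGS median from -0.56 to -0.68. The metformin libraries enter the fit through the choice of genes tested, the scaling factors and the shared estimate of spread. Among them, replicate 22 was close to the healthy libraries on many genes, such as Apoe at 7080 CPM against 65100 to 97200 in the other 5. A fit of the 12 libraries alone gave 5076 genes higher and 4856 lower. Microglial markers summed to 18300 to 20600 CPM in healthy and 4800 to 7880 CPM in control EAE libraries (8 of 9 tested fell, and Aif1 was at 0 in all libraries). Neuron markers (10 of 10 fell) summed to 530 to 735 and 213 to 365 CPM. Oligodendrocyte markers (6 of 7 fell) summed to 3370 to 3820 and 2660 to 3390 CPM, with overlap. Higher sums were found for fibroblast and mural cell (16.1 to 86.2 and 370 to 829 CPM, 6 of 7 rose), border macrophage (0.855 to 4.58 and 52.0 to 106 CPM, 3 of 4), T cell (0 to 0.344 and 1.60 to 6.32 CPM, 4 of 4, Trac at 0 in all libraries) and neutrophil markers (0 to 0.103 and 2.68 to 8.29 CPM, 2 of 2, Ly6g at 0 in all libraries). Endothelial markers (8.56 to 23.3 and 56.4 to 140 CPM, 3 of 5 rose and 2 fell, Cldn5 at 0 in all libraries) were also higher in sum. A score of the same markers in each library, on the log2 scale, overlapped between the groups. It ran from -1.17 to 1.55 in healthy and from 0.377 to 0.992 in control EAE (exact permutation test, p = 0.0862 adjusted over 22 library measures). The groups overlapped in the sums of monocyte-derived cell markers (1.44 to 2.72 and 2.70 to 11.9 CPM, 2 of 4 rose). They also overlapped for B and plasma cell markers (15 to 17.4 and 12.1 to 84.8 CPM, 2 of 3 rose and 1 fell). The B and plasma cell score did not overlap, at -2.43 to 0.134 in healthy and 0.556 to 4.27 in control EAE (exact permutation adjusted p = 0.00298). The score of monocyte-derived cells was also higher in control EAE, with overlap (exact permutation adjusted p = 0.00794). Astrocyte markers summed to 550 to 604 and 468 to 539 CPM. The part of RNA from other cells in the results below was not tested.

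Most of the measured transcriptome differed between EAE and healthy libraries, in nearly equal parts up and down. Of 39017 genes in the table, 14191 were at 0 in all 18 libraries and 16740 had enough counts to be tested. With edgeR's quasi-likelihood test at a Benjamini-Hochberg adjusted p under 0.05, 5314 genes rose (31.7% of those tested) and 5138 fell (30.7%), together 62.4%. Most changes were small: 6316 of the called genes moved by less than 2-fold, 2024 rose by at least 2-fold (12.1%) and 2112 fell by at least 2-fold (12.6%). All 6 EAE libraries lay above all 6 healthy libraries for 3364 genes (20.1%) and below them for 3235 genes (19.3%). The median log2 change was -0.003, with quartiles of -0.57 and 0.53.

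Large changes were not symmetric. Rises of at least 8-fold were seen in 416 genes and falls in 79. At 32-fold the counts were 138 and 5. Of those rises, 19 were genes with 0 counts in every healthy library, whose fitted size depends on a floor. Among genes with a mean of at least 5 CPM, the counts were 176 and 25 at 8-fold, and 61 and 2 at 32-fold. Without control EAE replicate 10 the calls were 5242 higher and 5280 lower. With library totals alone as the scale, the median of all genes was -0.42 and the calls were 2604 higher and 8649 lower, so the even split holds relative to the typical gene.

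**Figure D1:**
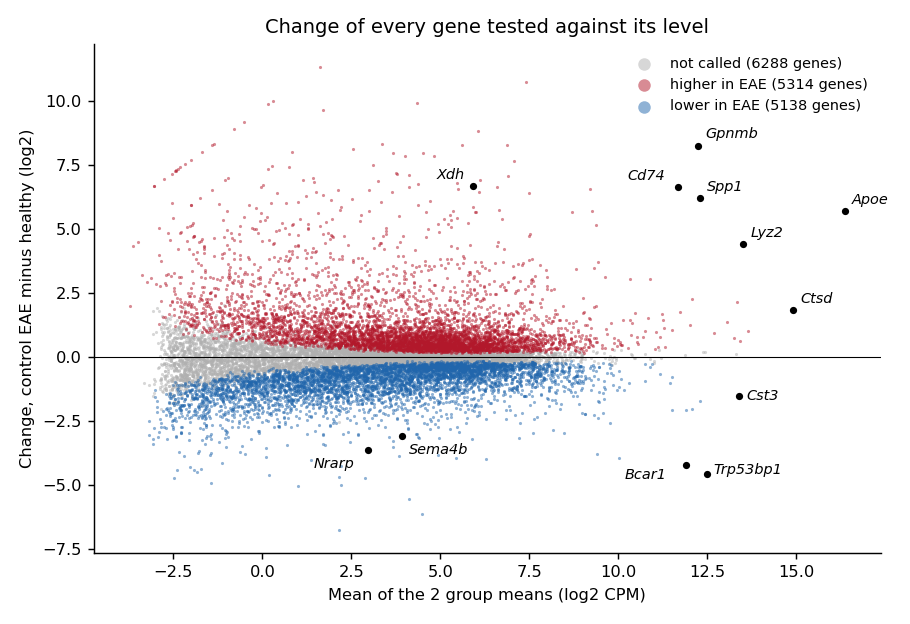
Change of each of the 16740 genes tested (vertical axis, log2, control EAE minus healthy) against the mean of both group means (horizontal axis, log2 CPM). Red points are the 5314 genes called higher, blue the 5138 called lower and grey those not called; the rising line of points at low levels on the left holds genes at or near 0 counts in healthy libraries, and the most abundant genes named reach from Apoe at 5.69 to Trp53bp1 at -4.56.

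The counts of an EAE library were concentrated in few genes. In healthy libraries 506 to 545 genes made up 50% of the counts, and in control EAE 126 to 280 genes did, without overlap (exact two-sided permutation test over all assignments of libraries to groups, p = 0.00216, the smallest it can give, and 0.00298 adjusted over 22 library measures). The 10 most abundant genes of each library took 10.7 to 11.3% of healthy counts and 24.2 to 31.4% of EAE counts (exact permutation adjusted p = 0.00298). Apoe, the lipid carrier, alone took 0.216 to 0.550% and 11.3 to 16.5% (exact permutation adjusted p = 0.00298).

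The 10 genes that gained most in CPM were Apoe, the lysosomal proteases Ctsd and Ctsb, the lysozyme Lyz2, the secreted phosphoprotein Spp1, the glycoprotein Gpnmb, the complement subunit C1qa, the saposin precursor Psap, the MHC class II chain Cd74 and the predicted gene Gm42418, which overlaps ribosomal RNA. Both sets of 10 were chosen by this contrast, so their shares are a description. The gaining genes held 3.63 to 4.72% of healthy counts and 22.2 to 30.5% of EAE counts. The 10 that lost most held 7.52 to 8.53% and 1.22 to 1.67%. Those were the protease inhibitor Cst3, the receptors Csf1r and Cx3cr1, the adhesion ligand Selplg, the matrix protein Sparc, the checkpoint receptor Vsir, the selenium carrier Selenop, the DNA repair protein Trp53bp1, the adhesion scaffold Bcar1 and the gamma-tubulin complex subunit Tubgcp4.

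Bcar1, on chromosome 8 and outside the overlapping pair Trp53bp1 and Tubgcp4 on chromosome 2, followed that pair across libraries. In healthy libraries Trp53bp1 ran from 9960 to 12000 CPM, Bcar1 from 6570 to 8600 and Tubgcp4 from 1760 to 2170. In control EAE the same genes ran from 214 to 688, 182 to 578 and 62.0 to 174 CPM, and all were lowest in replicate 9 and highest in replicate 2. In metformin replicate 22 they stood at 9070, 5010 and 1680 CPM.

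**Figure D2:**
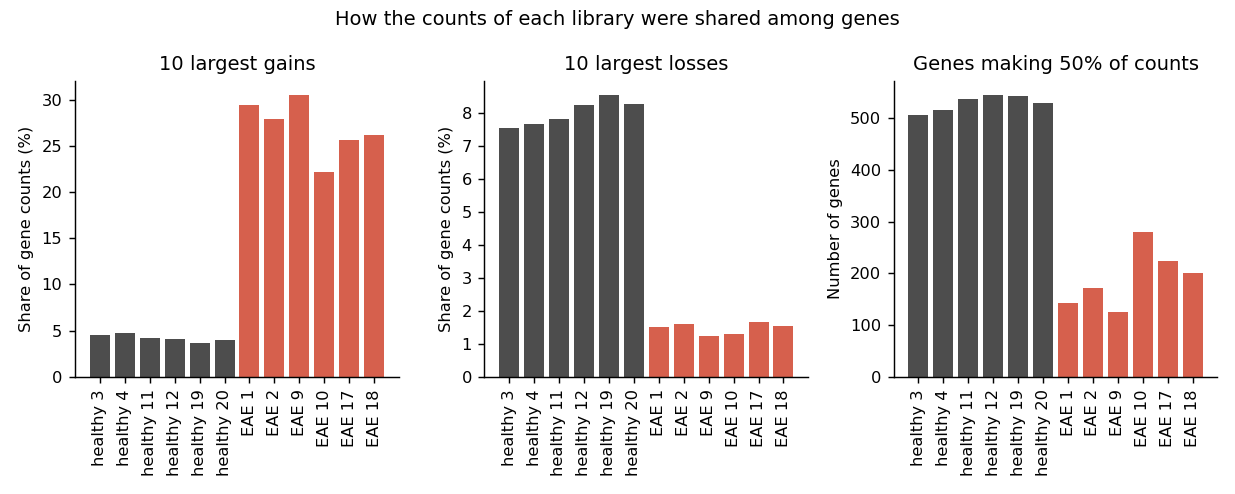
Share of gene counts (vertical axis, %, from 0) held in each healthy (dark) and control EAE (red) library by the 10 genes with the largest gain and the 10 with the largest loss in CPM, and the number of genes that make up 50% of counts. Gains run from 3.63 to 4.72% in healthy and 22.2 to 30.5% in EAE libraries, and replicate 10, with 280 genes for 50% of its counts, is the least concentrated EAE library.

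Cdca7l, a nuclear protein that binds Myc (ENSMUSG00000021175, chromosome 12, 117804289 to 117878706 in mm10, plus strand), ran from 1.74 to 2.63 CPM (median 2.37) in healthy and from 17.5 to 29.0 CPM (median 26.3) in EAE libraries. Its log2 change was 3.47 ± 0.21 (SE; adjusted p = 3.78e-09), or 11.1-fold. Its antisense neighbour Dnah11, an axonemal dynein (0.884 to 1.61 and 8.43 to 19.6 CPM), overlaps it. The kit marks strand, but the counting is not stated to use it, so their reads cannot be told apart.

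Mb21d2, a relative of the DNA sensor cGAS, lay between 4.79 and 5.95 CPM (median 5.03) in healthy and between 17.7 and 21.1 CPM (median 19.1) in EAE libraries (1.91 ± 0.14, adjusted p = 2.04e-08). Tnfsf13, the B cell survival cytokine APRIL, lay between 3.69 and 5.24 CPM (median 4.82) and between 19 and 32.8 CPM (median 20.7; 2.32 ± 0.17, adjusted p = 2.24e-08). Pkib, an inhibitor of protein kinase A, ran from 15.4 to 20.2 CPM (median 18) and from 50.9 to 63.9 CPM (median 55.4; 1.64 ± 0.12, adjusted p = 2.24e-08). No healthy library of these genes reached the lowest EAE library, as the choice of genes required. Tnfsf13 shares reads with the read-through gene Tnfsfm13. The other rises of this set were the MHC class I genes H2-Q4 and H2-T22, which have near-identical relatives and so uncertain counts, and the class I transactivator Nlrc5. With them rose the protease Capn1, the membrane linker of actin Ezr, the membrane protein Ms4a4c and the proton-sensing receptor Gpr65. Their log2 changes ran from 1.76 (Capn1) to 3.17 (Nlrc5).

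Among the falls with the smallest p, Nrarp, a target and inhibitor of Notch signalling, ran from 11.1 to 20 CPM (median 13.7) in healthy and from 1.04 to 1.31 CPM (median 1.14) in EAE libraries (-3.65 ± 0.27, adjusted p = 2.24e-08), 12.5-fold lower. Ctnnd2, a catenin of cell junctions, ran from 27.2 to 33.6 CPM (median 28.8) and from 3.08 to 6.33 CPM (median 3.97; -2.80 ± 0.20, adjusted p = 2.04e-08). Sema4b, a transmembrane semaphorin, ran from 20.7 to 37.5 CPM (median 23.4) and from 2.68 to 3.91 CPM (median 3.10; -3.09 ± 0.22, adjusted p = 2.04e-08). The groups did not overlap for any of them, again by the choice of genes. The rest were the membrane protein Thsd1, the microtubule protein Tppp, the endocytic adaptor Epn2, the scaffold Cass4, the GTPase Gimap6, Btbd3, the polarity protein Pard3b, the TGF-beta co-receptor endoglin (Eng) and the amino acid transporter Slc7a8, with log2 changes from -3.02 (Gimap6) to -1.37 (Slc7a8). Tppp (-2.58 ± 0.21) is also a protein of oligodendrocytes, whose markers had a median log2 change of -0.75, with sums that overlapped between the groups. The part of oligodendrocyte RNA in the fall of Tppp was not tested.

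**Figure D3:**
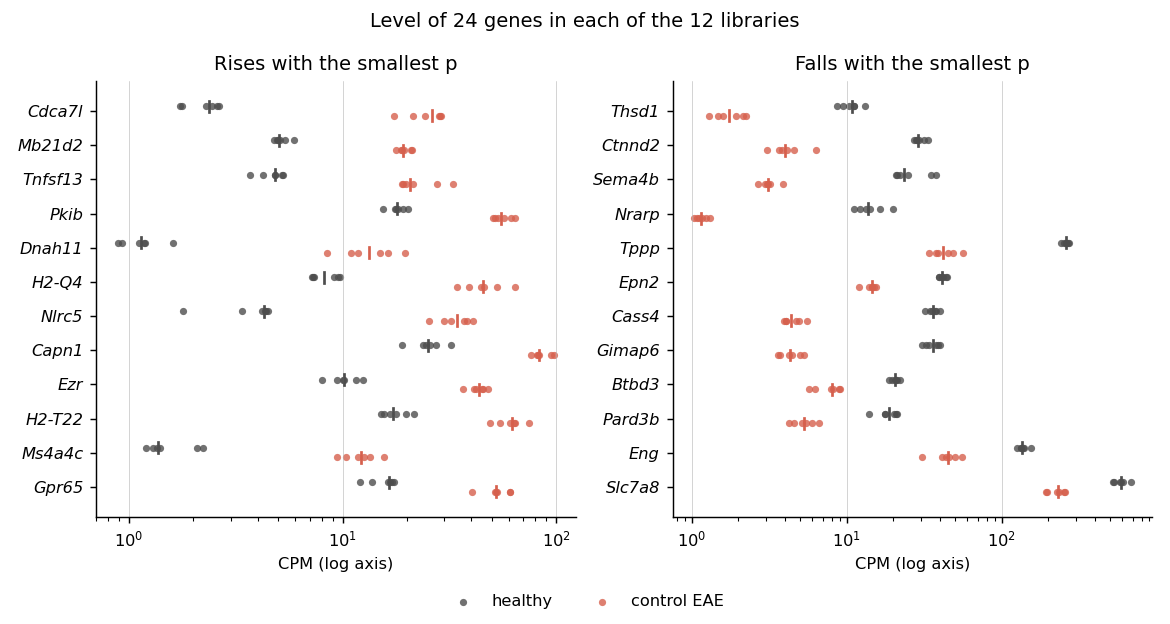
Level of the 12 rises and 12 falls with the smallest p in each library (horizontal log axis, CPM; dark points healthy, red points control EAE, ticks the group medians). For each of the 24 genes the 6 EAE libraries lie on one side of the 6 healthy libraries, as the choice of genes required.

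Promoters of the genes that rose most differed in base composition and in short sequence words from those of other genes. RefSeq promoter windows (GRCm38.p6, 250 bases before to 50 after the start) were matched by symbol for 10818 of the protein-coding genes tested. They held a median of 20 CpG dinucleotides in all, 16 for genes at least 2-fold higher, 17 for genes at least 2-fold lower and 6 for genes at least 8-fold higher. Among promoters with at most 3 CpG, 23.1% of genes were at least 2-fold higher and 17.9% at least 2-fold lower. Among those with over 25 CpG the shares were 7.83% and 10.3%. Genes with CpG-poor promoters thus changed more in both directions, with a median size of 0.83 against 0.45 on the log2 scale.

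The interferon-response word (TTTC, any 2 bases, TTTC, on either strand) was found in 3.06% of all windows, in 6.91% of those of genes at least 2-fold higher and in 2.23% of those at least 2-fold lower. The NF-kB word (GGG, any 2 bases, TTTCC) was found in 1.53, 2.66 and 1.32%. The AP-1 word TGANTCA was found in 4.88, 8.36 and 4.54%, and in 13.8% of windows of genes at least 8-fold higher. The word TATAAA was found in 7.0, 10.8 and 7.84%, and in 19.5% of those at least 8-fold higher. CACGTG was found in 9.96, 10.2 and 7.18%, and in 5.75% of those at least 8-fold higher. The cyclic AMP word TGACGTCA was found in 3.13, 2.51 and 2.39%, and in 1.15% at 8-fold. The GC box word GGGCGGGG had 33.0, 31.7 and 30.4%, and 21.8% at 8-fold. For the ETS word GAGGAAGT the values were 3.0, 3.57 and 2.56%, and 3.45% at 8-fold. Median GC was 54.0% in windows of genes at least 8-fold higher and 60.7% in all. The part of base composition in these shares was not tested. The windows below hold an interferon-response, NF-kB or TATA word in named genes that rose at least 2-fold. They are 5 picked from 9 such windows to show 3 kinds of word in genes described here. They run along the gene's strand with up to 25 bases on each side, and capitals mark the matched word, or its reverse complement. A match describes the letters and does not show a site in use.
H2-Q4 (chr17:35379418-35379477, plus strand, NF-kB word): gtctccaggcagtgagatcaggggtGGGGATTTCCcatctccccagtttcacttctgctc
H2-T22 (chr17:36042899-36042958, minus strand, interferon-response word): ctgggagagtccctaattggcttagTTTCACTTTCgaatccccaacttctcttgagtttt
Stat2 (chr10:128270251-128270310, plus strand, interferon-response word): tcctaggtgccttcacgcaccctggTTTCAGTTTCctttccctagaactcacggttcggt
Plxnc1 (chr10:94944929-94944988, minus strand, interferon-response word): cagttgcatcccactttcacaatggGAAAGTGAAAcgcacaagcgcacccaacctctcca
Cd300lf (chr11:115133993-115134045, minus strand, TATA word): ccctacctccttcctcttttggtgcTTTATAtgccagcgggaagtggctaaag

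Gene families were followed in 43 lists of 1948 genes in the table, of which 1755 were tested and 77 were at 0 in all libraries. Counts of members below stand against 31.7% of all genes tested that rose and 30.7% that fell. List medians were above 0 for 24 lists and below 0 for 19. With library totals as the scale all genes shifted by -0.42, and 19 of the positive list medians turned negative with them, while that of cell death genes stood at -0.00. Measured against that shift, no list median moved by more than 0.03, so directions below are relative to the typical gene. Members given beyond the rule for named genes were chosen after their values were seen.

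Paired immunoglobulin-like and TREM receptors switch myeloid cells on or off through ITAM and ITIM signals. Their list, which also holds SLAM family receptors such as Slamf7 and Ly9, had the highest share of rises. Of 24 tested 18 rose (75%) and 2 fell, with a median log2 change of 1.03 (0.60 with library totals). Cd300lf, a receptor for lipids of dying cells, ran from 1.65 to 2.80 CPM (median 1.90) in healthy and from 88.7 to 167 CPM (median 111) in EAE libraries (5.85 ± 0.44, adjusted p = 7.85e-08). Slamf7, a homophilic receptor of the SLAM family, ran from 0.0344 to 0.446 CPM and from 22.4 to 38.6 CPM (7.11 ± 0.68). Ly9 rose by 2.04 ± 0.18. The inhibitory receptor Lair1 (-0.36 ± 0.09) and Lilra5 (-0.45 ± 0.15) fell, and EAE and healthy libraries overlapped for Lilra5.

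The signalling machinery behind such receptors held both rises and falls. Of 28 ITAM kinases and adaptors 10 rose (35.7%, against 31.7% of all genes tested) and 13 fell (46.4%, against 30.7%). The adaptors Tyrobp (0.89 ± 0.13) and Hcst (1.91 ± 0.19) and the Src kinase Fgr (2.81 ± 0.38) rose. The ubiquitin ligase Cbl, which ends receptor signals, fell from 37.4 to 67.5 CPM (median 41.6) to 10.5 to 17.6 CPM (median 14.8; -1.69 ± 0.17, adjusted p = 2.06e-07). The docking protein Gab1 (-1.66 ± 0.15) and the kinase Syk (-0.54 ± 0.13) fell, with overlap between the groups for Syk, while Gab3 rose (1.55 ± 0.18).

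Regulators of G proteins, cyclic nucleotides and phosphotyrosine fell more often than they rose. Of 17 RGS proteins, which end G protein signals, 10 fell (58.8%), 2 rose and the median was -0.56. Rgs16 ran from 0.739 to 2.12 CPM (median 0.947) in healthy and from 16.3 to 38.4 CPM (median 30.3) in EAE libraries (4.73 ± 0.58). Rgs1 rose as well (2.32 ± 0.31), and Rgs2 fell (-0.75 ± 0.10). Of 33 protein tyrosine phosphatases 17 fell (51.5%) and 3 rose, with a median of -0.57 (-0.29 after genes of like length were subtracted). The rises were in Ptpn7 (3.12 ± 0.41), the leukocyte phosphatase Ptprc (0.89 ± 0.15, with overlap) and Ptpn18 (0.37 ± 0.15). The call of Ptpn18 was lost in several fits that left out 1 library, with 0.20 without control EAE replicate 10, and its change was -0.05 with library totals. Of 23 adenylate cyclases and phosphodiesterases 10 fell (43.5%) and 6 rose (26.1%). Their median was -0.54 (-0.34 without control EAE replicate 1, and -0.21 after genes of like transcript length were subtracted). Adcy8, a calcium-stimulated adenylate cyclase, ran from 6.30 to 16.8 CPM (median 9.46) and from 0.454 to 1.24 CPM (median 1.09; -3.34 ± 0.32, adjusted p = 1.52e-07). Among phosphoinositide enzymes 15 of 33 fell, including the kinase Pik3cg (-1.52 ± 0.18), and 6 rose, with a median of -0.21 (-0.13 without control EAE replicate 10).

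Calcium pumps of the plasma membrane went opposite ways. Of 38 calcium genes 17 fell and 6 rose, with a median of -0.14 (-0.07 without control EAE replicate 10 and -0.08 without healthy replicate 3). Atp2b1 ran from 32.5 to 43.5 CPM (median 37.5) in healthy and from 68.8 to 129 CPM (median 84.6) in EAE libraries (1.21 ± 0.13, adjusted p = 2.95e-07). Its relatives Atp2b2 (-1.62 ± 0.16), Atp2b3 (-2.32 ± 0.29) and Atp2b4 (-0.79 ± 0.20) fell. Atp2b2 and Atp2b3 are known as pumps of neurons, and neuron marker sums were lower in EAE as given above.

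Of 31 Notch pathway genes 10 rose (32.3%) and 12 fell (38.7%), shares near those of all genes. The ligand Jag1 rose (2.74 ± 0.38) and Jag2 fell (-2.94 ± 0.34). The receptor Notch1 (-1.19 ± 0.14), the coactivator Maml3 (-1.81 ± 0.19) and the Notch inhibitor Numb (-2.19 ± 0.23) fell. Psen2, a catalytic subunit of gamma-secretase, rose from 15.3 to 23.9 CPM (median 19.1) to 97.4 to 122 CPM (median 114; 2.51 ± 0.24, adjusted p = 2.19e-07). Of 28 semaphorins, plexins and neuropilins, guidance cues and their receptors, 13 fell and 6 rose. The receptors Plxnc1 (4.88 ± 0.53), Plxnd1 (3.69 ± 0.45) and Nrp1 (1.42 ± 0.15) rose, and Sema4b and Plxna4 (-2.34 ± 0.28) fell. Of the tetraspanins and galectins 12 of 29 rose, among them Lgals3, a galectin that binds damaged lysosomes, from 13.5 to 38.4 CPM (median 19.9) to 1100 to 1340 CPM (median 1190; 5.69 ± 0.60). Tspan18 ran from 48.8 to 60.6 CPM and from 5.24 to 7.92 CPM (-3.15 ± 0.30), among 8 members that fell. The median of that list was 0.18 (0.31 without control EAE replicate 1, 0.29 without control EAE replicate 2, and -0.23 with library totals).

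Among 24 genes of the Arp2/3 complex and its WAVE and WASP activators 8 rose (33.3%) and 9 fell (37.5%), shares near those of all genes. Their median was -0.11 (-0.12 after genes of like transcript length were subtracted, and -0.02 without control EAE replicate 1). Of the 8 rises 7 were subunits of the Arp2/3 complex and the other was Abi1 of the WAVE complex, while the subunits Actr2 and Arpc1a were not called. Subunit levels rose, with Arpc5 from 204 to 223 CPM (median 208) to 381 to 493 CPM (median 413; 1.02 ± 0.12, adjusted p = 1.31e-06), Arpc3 at 0.94 ± 0.12, Actr3 at 0.90 ± 0.14, Arpc1b at 0.73 ± 0.10 and Arpc2 at 0.68 ± 0.10. All 9 falls were in activators and their partners, with Wasf2 from 786 to 1090 CPM (median 822) to 170 to 443 CPM (median 373; -1.29 ± 0.18, adjusted p = 4.27e-06), Wasf3 at -1.86 ± 0.28 and Cyfip1 at -0.92 ± 0.10. Transcript length moved with this difference, with a rank correlation of length and log2 change of -0.66 over the 24 genes as a description, and its part was not tested. Actin capping and severing proteins and formins rose in 15 of 29 cases and fell in 7 (median 0.20, and -0.21 with library totals), with the capping protein Capg at 2.12 ± 0.26 and the formin Fmnl1 at -1.07 ± 0.15.

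Of 34 motor genes 15 fell and 9 rose. The dynactin subunits Dctn6 (0.78 ± 0.10) and Dctn3 (0.76 ± 0.11) rose, and the dynein light intermediate chain Dync1li2 (-0.79 ± 0.08) and the kinesin Kif13a (-1.01 ± 0.12) fell.

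Among transcription factors of the IRF and STAT families, 6 of 15 rose and 4 fell (median 0.10, and -0.32 with library totals). That median was 0.17 without healthy replicate 3, and 0.06 without control EAE replicate 2 or healthy replicate 4. Irf1 (1.64 ± 0.24), Irf7 (1.39 ± 0.25, with overlap) and Stat2 (1.28 ± 0.18) rose. The falls were in Irf4 (-3.0 ± 0.35), which ran from 9.80 to 13 CPM and from 0.449 to 2.07 CPM, and in Irf5 (-0.39 ± 0.08), Stat5b (-0.37 ± 0.10) and Stat6 (-0.29 ± 0.10), these last with overlap. Of 19 KLF and C/EBP factors 9 rose and 6 fell (median 0.28, and -0.11 with library totals), with Klf9 at 1.36 ± 0.19 and Klf3 at -1.74 ± 0.20. In the circadian clock list 9 of 22 rose (40.9%, against 31.7% of all genes tested) and 7 fell (31.8%, against 30.7%). Bhlhe40, a repressor that is also induced in activated macrophages and T cells, rose from 14.2 to 29.4 CPM (median 19.6) to 125 to 303 CPM (median 257; 3.55 ± 0.43). Nfil3 (1.79 ± 0.25) and Per2 (1.13 ± 0.17) rose, and Hlf (-1.95 ± 0.24), Nr1d1 (-0.86 ± 0.15) and the clock activator Arntl (-0.65 ± 0.13) fell. The labels give no hour of collection.

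Zfp-named zinc finger proteins, many of them repressors of retroelements, fell far more often than they rose. Many have close relatives, so single members are uncertain. Of 338 tested 161 fell (47.6%) and 33 rose (9.76%), with a median of -0.38. After the median of genes of like transcript length was subtracted the list stood at -0.35. Zfp658 ran from 47.9 to 55.4 CPM (median 52.0) and from 8.09 to 17.4 CPM (median 12.5; -2.08 ± 0.20, adjusted p = 1.57e-07). Zfp704 rose (1.43 ± 0.17). Chromatin remodellers and bromodomain proteins fell in 16 of 38 cases and rose in 8, with Arid1a at -1.0 ± 0.11 and Smarca5 at 1.15 ± 0.22. Their median of -0.14 turned to 0.15 after the same subtraction, the only list with a median beyond 0.1 to change sign under it. Without control EAE replicate 10 the median was -0.24, and without healthy replicate 12 the count of rises was 5.

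RNA processing genes leaned upwards. Of 40 spliceosome proteins 21 rose (52.5%) and 4 fell (7 without control EAE replicate 10), with a median of 0.29 (-0.11 with library totals). Snrnp35 of the minor spliceosome (0.82 ± 0.10) and Sf3b5 (0.79 ± 0.11) rose. The falls were in the large core proteins Prpf8, from 106 to 140 CPM (median 111) to 29.1 to 67.4 CPM (median 56.6; -1.12 ± 0.18, adjusted p = 2.16e-05), and Snrnp200 (-0.58 ± 0.13), and in Prpf3 (-0.50 ± 0.13) and Prpf18 (-0.20 ± 0.08), whose call was lost in several fits that left out 1 library. Of 31 SR proteins and hnRNPs 14 rose and 7 fell (median 0.28, 0.14 without control EAE replicate 10, and -0.14 with library totals), with Hnrnpa1, of a family with many pseudogenes, at 1.28 ± 0.18. Of 43 genes of RNA polymerase II and Mediator 19 rose and 6 fell. Polr2f rose (1.0 ± 0.15) and Med12 (-1.27 ± 0.23) and Med13l (-1.27 ± 0.14) of the Mediator kinase module fell. Their median of 0.24 was 0.03 after genes of like length were subtracted, and -0.19 with library totals. RNA decay genes were even, 14 up and 16 down of 52, as were DNA damage response genes, 10 up and 11 down of 48, and nucleoporins, 7 up and 6 down of 24. The nucleoporin median of 0.10 was 0.16 without control EAE replicate 9 and 0.06 without control EAE replicate 1 or healthy replicate 19.

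Metabolic genes divided within pathways. In purine and pyrimidine metabolism 18 of 40 genes rose and 5 fell (median 0.11, and -0.32 with library totals). That median was 0.19 without control EAE replicate 10 and 0.17 without healthy replicate 20. Xdh, xanthine oxidoreductase, which makes uric acid and can release superoxide, ran from 0.539 to 2.16 CPM (median 1.06) in healthy and from 92.1 to 164 CPM (median 117) in EAE libraries (6.67 ± 0.52, adjusted p = 8.95e-08), 102-fold higher. Other rises were in guanine deaminase Gda (4.35 ± 0.73, from 0 to 0.289 CPM to 1.14 to 8.83 CPM) and in the salvage enzymes Aprt (1.69 ± 0.16) and Hprt (0.63 ± 0.14, with overlap). All 5 falls were in other steps: Cad (-0.77 ± 0.16), Ctps (-0.43 ± 0.18) and Gmps (-0.37 ± 0.14) of synthesis, Ampd3 (-0.65 ± 0.12) and Dpysl2 (-0.72 ± 0.15). Dpysl2 is named for its likeness to a pyrimidine-degrading enzyme and is known for axon guidance. The call of Ctps was lost in most fits that left out 1 library, with -0.34 without healthy replicate 4, and that of Gmps without healthy replicate 20 (-0.31).

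Of 52 sphingolipid and ganglioside genes 24 rose and 12 fell (median 0.22, and -0.21 with library totals). Gla, the lysosomal alpha-galactosidase, ran from 7.25 to 11.7 CPM (median 9.30) and from 128 to 229 CPM (median 183; 4.32 ± 0.47, adjusted p = 9.13e-07). Glb1 (1.71 ± 0.19) and Galc (1.61 ± 0.19) rose too. St3gal5, which makes the ganglioside GM3, fell from 92.6 to 102 CPM (median 97.5) to 14.4 to 33.8 CPM (median 26.4; -1.95 ± 0.25).

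Fatty acid oxidation genes rose in 15 of 32 cases and fell in 7 (median 0.24, and -0.19 with library totals). Echs1 ran from 53.9 to 61.7 CPM (median 58.1) and from 164 to 210 CPM (median 186; 1.69 ± 0.15, adjusted p = 1.04e-07), with Acadl (1.52 ± 0.14), Acaa2 (1.26 ± 0.12) and Etfa (1.5 ± 0.22) also higher. The carnitine transferase Cpt1a rose by 0.73 ± 0.16, with overlap, since control EAE replicate 10 stood at 46 CPM, below the healthy range of 47.8 to 58.2 CPM, and the other EAE libraries at 85.6 to 100 CPM. In the TCA cycle list 14 of 32 rose and 7 fell (median 0.15, and -0.27 with library totals). The cytosolic isocitrate dehydrogenase Idh1 rose (1.22 ± 0.13, from 33.5 to 40.5 CPM to 79.8 to 100 CPM) and the mitochondrial Idh2 fell (-0.84 ± 0.11, from 62.1 to 68.9 CPM to 34.0 to 43 CPM). Peroxisome genes rose in 9 of 20 cases and fell in 5, among them Pex5l (-1.40 ± 0.21), Pex2 (-0.45 ± 0.08) and Pex6 (-0.40 ± 0.12).

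Metallothioneins and selenoproteins rose in 15 of 24 cases (62.5%) and fell in 3, with a median of 0.55 (0.13 with library totals). The zinc-binding Mt1 rose from 55.0 to 89.3 CPM (median 76.2) to 202 to 331 CPM (median 250; 1.82 ± 0.16, adjusted p = 8.19e-08) and Mt2 by 2.23 ± 0.24. Msrb1, which repairs oxidised methionine, ran from 20.1 to 25 CPM (median 21.3) and from 182 to 346 CPM (median 258; 3.63 ± 0.37). The falls were in the secreted selenium carrier Selenop (-0.78 ± 0.11), in Selenoi (-0.55 ± 0.11) and in Selenoo (-0.29 ± 0.11), whose call was lost in several fits that left out 1 library, with -0.21 without control EAE replicate 10. Mitochondrial import genes rose in 17 of 31 cases and fell in 2, Mfn1 (-0.29 ± 0.08) and Timm21 (-0.28 ± 0.10), the latter not called in several fits that left out 1 library. The median of 0.41 was 0.16 after genes of like length were subtracted.

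The entry to the secretory pathway rose in most members, and named stress sensors fell. Of 36 genes of the endoplasmic reticulum translocon and oligosaccharyltransferase 24 rose (66.7%) and 0 fell, with a median of 0.36 (0.28 after genes of like length were subtracted, and -0.06 with library totals). DESeq2 also called 0 falls, but with library totals 9 rose and 11 fell. At an unadjusted p under 0.05 there was 1, the signal peptidase subunit Sec11c (-0.23 ± 0.11, unadjusted p = 0.042 and adjusted p = 0.065 by edgeR), and 1 fall was called without control EAE replicate 10 and 1 without healthy replicate 3. Spcs1, a signal peptidase subunit, ran from 33.2 to 43.5 CPM (median 40.6) and from 92.7 to 150 CPM (median 101; 1.44 ± 0.16, adjusted p = 5.69e-07). The translocon subunit Sec61b (1.17 ± 0.18), the signal recognition particle protein Srp14 (1.01 ± 0.11) and the oligosaccharyltransferase subunit Ddost (0.80 ± 0.10) rose. In the list of folding and the unfolded protein response 12 of 26 rose and 5 fell. The 5 were the stress sensors Eif2ak3 (PERK; -0.67 ± 0.12) and Atf6 (-0.34 ± 0.11, with overlap) and the degradation factors Herpud1 (-0.59 ± 0.13), Edem3 (-0.52 ± 0.13) and Edem1 (-0.49 ± 0.10). Among the rises was the chaperone partner Sdf2l1 (1.0 ± 0.14).

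Vesicle coats and cargo receptors rose in 19 of 40 cases and fell in 5 (Sec16a, Copg1, Sec24b, Sec16b at -2.45 ± 0.26 and Copg2 at -0.21 ± 0.08, whose call was lost in several fits that left out 1 library), with a median of 0.18 (-0.24 with library totals). The cargo receptor Tmed3 ran from 115 to 138 CPM (median 124) and from 311 to 445 CPM (median 367; 1.60 ± 0.16, adjusted p = 2.68e-07). ESCRT and retromer genes rose in 19 of 34 cases (55.9%) and fell in 1, Vps37b (-0.67 ± 0.10), with a median of 0.45 (0.28 after genes of like length were subtracted). With library totals 7 rose and 12 fell, with a median of 0.02. Values of rising members were Chmp4b at 0.85 ± 0.10 and Mvb12a at 1.13 ± 0.12. SNAREs and their Sec1/Munc18 partners rose in 21 of 46 cases and fell in 13. Stx11, a syntaxin of cytotoxic granule release, ran from 0.248 to 0.820 CPM (median 0.355) and from 5.11 to 9.14 CPM (median 7.0; 4.05 ± 0.41), and Stx3 rose by 1.72 ± 0.15. Vamp1 (-1.13 ± 0.13), a SNARE of the neuronal synapse, fell beside the neuron markers.

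Ubiquitin-conjugating enzymes rose in 15 of 29 cases and fell in 3, among them Ube2o and Ube2n, and their median was 0.31 (-0.11 with library totals). Ube2l6, the conjugating enzyme of the ubiquitin-like modifier Isg15, rose by 1.47 ± 0.17. USP deubiquitinases went the other way, with 23 of 44 down (52.3%), 8 up and a median of -0.30, which was -0.08 after genes of like length were subtracted. Usp18, which removes Isg15, rose from 3.04 to 7.87 CPM (median 4.42) to 17.6 to 31.5 CPM (median 25.3; 2.39 ± 0.25), and Usp30 rose by 1.53 ± 0.15. Usp24 fell (-1.35 ± 0.15). Of 45 TRIM ubiquitin ligases 21 fell and 10 rose, with Trim36 at -1.58 ± 0.15 and the antiviral Trim25 at 0.66 ± 0.12.

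Cell death genes rose in 19 of 34 cases (55.9%) and fell in 7, with a median of 0.41 (-0.00 with library totals). Members of the lytic pathway rose: the nucleic acid sensor Zbp1 ran from 3.31 to 11.3 CPM (median 4.50) and from 36.2 to 144 CPM (median 57.3; 3.65 ± 0.46, adjusted p = 4.39e-06), and its effector Mlkl rose by 2.55 ± 0.41. The pore former Bax (1.41 ± 0.14) and its opponent Bcl2 (1.78 ± 0.21) both rose. Casp8, which holds the lytic pathway in check, fell from 103 to 123 CPM (median 113) to 58.7 to 76.0 CPM (median 69.2; -0.72 ± 0.08, adjusted p = 7.45e-07). Its partner Cflar (-0.80 ± 0.11) fell.

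**Figure D4:**
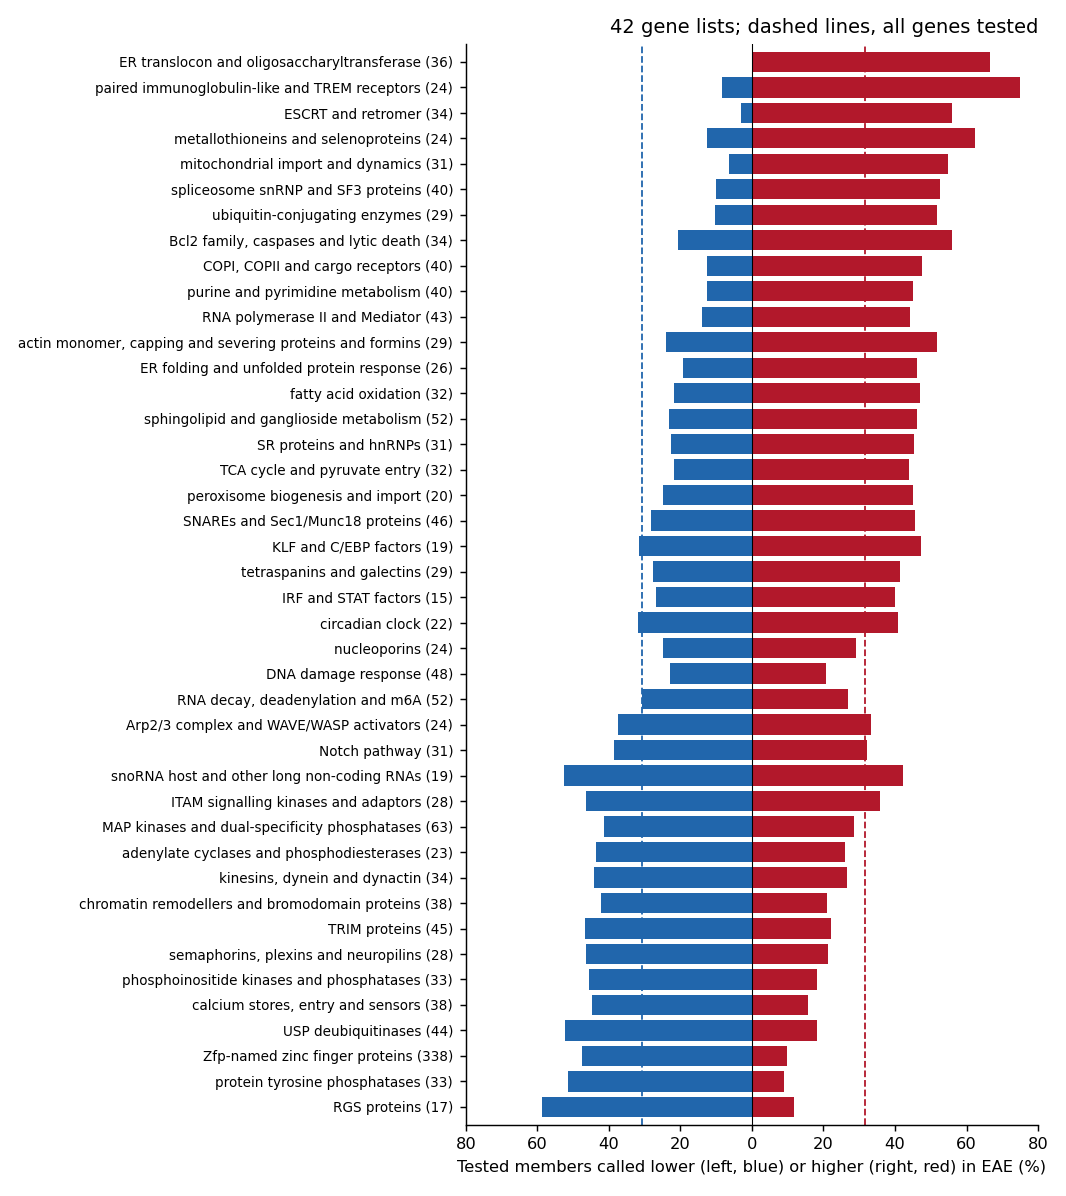
Percentage of tested members of 42 gene lists (number tested in brackets) called lower (left, blue) and higher (right, red) in control EAE; dashed lines mark 30.7% lower and 31.7% higher among all genes tested. The endoplasmic reticulum translocon (66.7% higher, 0% lower) is at the top, the paired receptors have the highest share higher (75%) and the RGS proteins the highest share lower (58.8%), at TMM scaling; with library totals 19 list medians above 0 turn negative. Lists are ordered by the percentage higher minus the percentage lower.

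Transcript length followed the change across the genome. Protein-coding genes were ordered by their longest annotated transcript and cut into 10 bins of like size. In the shortest bin (up to 1460 bases) 59.3% rose and 11.7% fell, with a median log2 change of 0.52 (0.10 with library totals). In the longest bin (6886 bases and more) 15.6% rose and 51.7% fell, with a median of -0.42 (-0.84 with library totals). Medians declined through each bin between. The order was seen at each level of expression: with 4 bins of level and 5 of length, 70.8% of the shortest genes rose against 17.9% of the longest at the highest level, and 31.2% against 13.3% at the lowest.

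The gradient differed between libraries as well. The median log2 CPM of the shortest bin minus that of the longest was -1.08 to -0.819 in healthy, -0.339 to 0.291 in control EAE and -1.18 to -0.609 in metformin libraries. Control EAE minus healthy was 0.947, without overlap (exact permutation adjusted p = 0.00298). The labels give no measure of RNA integrity, and the part of RNA quality or library preparation in this gradient was not tested. Families of short transcripts (mitochondrial import, RNA polymerase II) rose and families of long ones (phosphatases, USP enzymes) fell, and the medians of the lists named here are given above also against genes of like length.

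**Figure D5:**
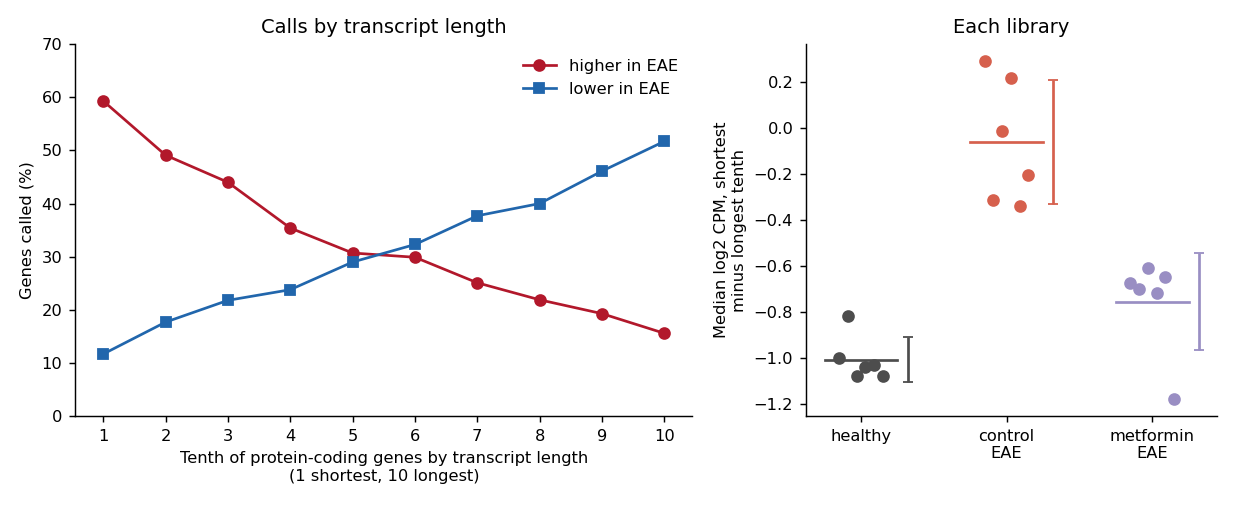
Left, percentage of protein-coding genes called higher (red circles) or lower (blue squares) in each of 10 bins of transcript length; right, the median log2 CPM of the shortest bin minus that of the longest in each library (points), with group mean (line) and SD (bar). Rises decline from 59.3 to 15.6% and falls climb from 11.7 to 51.7%, and the control EAE libraries lie above the healthy ones.

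Classes of genes outside the protein-coding set differed too. Processed pseudogenes, short copies of spliced transcripts that can take reads from their parents, rose in 33.9% and fell in 19.2% of 1060 cases (median 0.22, and -0.21 with library totals). Antisense genes fell in 35.3% and rose in 19.9% of 587 (median -0.33), and lincRNAs fell in 32% and rose in 19.1% of 341 (median -0.32). Among 641 pairs of an antisense gene and its overlapping protein-coding partner, both were called in 272. Of those, 86 rose together, 160 fell together and 26 went opposite ways. Strand use in counting is not stated, so a shared direction cannot be told apart from shared reads. Among snoRNA host and other long non-coding RNAs 8 of 19 rose and 10 fell. Snhg6 (1.51 ± 0.28) rose, and Miat (-1.86 ± 0.28) fell from 37.9 to 93.5 CPM (median 73.0) to 15 to 24.2 CPM (median 18.9).

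Chromosomes were alike, with the exception of the mitochondrial genome. The share of genes called higher lay between 25.6% (X) and 37.9% (chromosome 19) on the nuclear chromosomes. Of 23 mitochondrially encoded genes tested 14 fell (60.9%) and 3 rose, with a median of -1.05. Mitochondrial genes took 0.236 to 0.714% of counts in healthy and 0.0774 to 0.177% in control EAE libraries (exact permutation adjusted p = 0.00298). The healthy libraries were split, with replicates 3 and 4 at 0.236 and 0.238% and the others at 0.643 to 0.714%. Neuron and oligodendrocyte markers were also lower in EAE, and no cause of the mitochondrial difference was tested.

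The spread among EAE libraries rested in large part on 1 library. Over 10332 genes with a mean of at least 5 CPM, the median SD of log2 CPM was 0.240 in control EAE, 0.146 in healthy and 0.185 in metformin libraries, and 80.1% of genes had the larger SD in EAE than in healthy libraries. Without control EAE replicate 10 the EAE value was 0.168 and the share was 59.6%. The metformin value includes replicate 22, which was close to the healthy libraries on many genes. Replicate 10 stood apart from the other 5 EAE libraries in 1456 genes (14.1%), 952 low and 504 high. The next library was healthy replicate 3 with 479 genes (4.64%). Ptch1, the Hedgehog receptor, was at 0.251 CPM in replicate 10, at 2.86 to 4.10 CPM in the other EAE libraries and at 8.58 to 12.5 CPM in healthy ones. Atrx, a chromatin remodeller, was at 54.3, 8.06 to 12.8 and 3.93 to 6.73 CPM, and its change of 1.75 ± 0.38 was 1.02 without replicate 10. The interferon-inducible GTPase Gbp7 (132, 4.02 to 31.9 and 4.58 to 11.7 CPM) and the topoisomerase of dividing cells Top2a (40.7, 5.16 to 13.1 and 3.68 to 4.72 CPM) lost their calls without it (2.20 to 1.08 and 1.61 to 0.78 on the log2 scale).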

How the data were processed

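The authors deposited 1 table of raw counts per gene for 18 libraries of total RNA from mouse spinal cord. Per the submitters' processing notes, bcl2fastq 2.17, FastQC and Trimmomatic were used with mm10. Which aligner, counter and gene models were used is not given in the sources used here. The library kit was stranded per the labels' protocols, but strand use in counting is not stated, so antisense and overlapping genes cannot be told apart. Counts are PCR reads without molecular identifiers. Symbols were found for 37607 of 39017 genes by ID.

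Genes were kept by edgeR's filterByExpr (count minimum 10, total minimum 15), scaled by TMM factors and tested with edgeR 4.0.16 (R 4.3.3), quasi-likelihood with robust dispersion, over all 18 libraries, with Benjamini-Hochberg adjustment over 16740 genes and a threshold of 0.05. All adjusted p-values of genes are from this fit. CPM are TMM-scaled. Library measures used exact two-sided permutation tests over all assignments of 6 and 6 libraries. Tables were handled in Python 3.11.15 with pandas 2.3.3, numpy 2.4.6 and scipy 1.17.1. The tests were checked on simulated data. The simulated counts for the gene test held far fewer changed genes than these libraries, so they do not check the scaling used here.

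Named genes were the 12 rises and 12 falls with the smallest p among called, non-overlapping genes of at least 5 CPM with a symbol, the 10 largest gains and 10 largest losses in CPM, up to 2 rises and 2 falls with the smallest p in each of 43 lists (mean of at least 1 CPM), and Tmem119, Rpl22, Kdm6a and Apoe. Other genes were named after their values were seen. Members and lists were chosen with earlier results of these data known. No replicate pair agreed within sampling noise (lowest chi-square per degree of freedom 15.5). Alternatives were library totals, RLE factors, DESeq2 1.42.0, other filters, 12 libraries alone, runs of label numbers as a covariate, Apoe left out, each library left out and, chosen after seeing the data, subtraction of the median of genes of like transcript length. Some genes and 1 list are not reported here.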

Additional observations from a re-analysis of the deposited data

Results flagged for a closer look

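Of 578 groups of 6 values examined, 59 (10.2%) held 1 library far from the other 5. Chance alone marks about 1 in 20 of groups that are independent and chosen without regard to their values. These groups share the same libraries, and some genes, such as Kif13b, were named after their values were seen. The share is therefore a description. Control EAE replicate 10 was that library 24 times, healthy replicate 3 11 times and healthy replicate 4 9 times. Values are CPM, with the range of the other 5 libraries of the group in brackets, and no cause was tested. Control EAE replicate 10 was low for Wasf2 at 170 (334 to 443), Gab1 at 17.5 (28.6 to 34.9), Dusp7 at 56.7 (81.6 to 94.6), Plxna4 at 3.84 (7.93 to 12) and Ly9 at 145 (192 to 214). CPM of replicate 10 of control EAE was also low for Bhlhe40 at 125 (249 to 303), Irf4 at 0.449 (1.24 to 2.07), Med12 at 3.82 (10.1 to 16.4), Zc3h12a at 12.4 (26.8 to 38.0) and Pdp2 at 7.39 (10.9 to 13.5). Control EAE replicate 10 was also low for Ampd3 at 8.86 (13.4 to 16.5), Trim7 at 3.23 (5.39 to 6.83) and Slamf7 at 22.4 (32.6 to 38.6). CPM of replicate 10 of control EAE was also low for Cd300lb at 19.6 (63.5 to 114), Cpt1a at 46 (85.6 to 100), Ptch1 at 0.251 (2.86 to 4.10) and Kif13b at 2.15 (13.9 to 24.1). Control EAE replicate 10 was high for Cebpd at 68.4 (30.6 to 36.5), Smarca5 at 26.4 (8.59 to 12.4), Exosc3 at 29.5 (15.9 to 19.5), Spcs1 at 150 (92.7 to 107) and Arpc2 at 559 (395 to 413). CPM of replicate 10 of control EAE was also high for Sec61b at 65.5 (28.0 to 36.4) and Atrx at 54.3 (8.06 to 12.8). Healthy replicate 3 was low for Cst3 at 12600 (16100 to 17200), Rgs2 at 406 (484 to 515), Mirg at 0.767 (2.07 to 3.63), Spcs1 at 33.2 (39.7 to 43.5) and Sec61b at 12.9 (17.2 to 18.8). Healthy replicate 3 was also low for Ptpn18 at 40.8 (57.2 to 68.0). Healthy replicate 3 was high for Wasf2 at 1090 (786 to 846), Pip4k2c at 129 (102 to 110), Arid1a at 506 (366 to 394) and Med12 at 38.4 (22.3 to 26.6). Healthy replicate 3 was also high for Edem1 at 428 (336 to 359). Healthy replicate 4 was high for Arpc3 at 92.4 (78.7 to 81.9), Dctn6 at 21.9 (18.4 to 19.6), Hes6 at 30.5 (22.9 to 25), Chmp4b at 265 (238 to 247) and Irf1 at 62.7 (54.9 to 57.5). Control EAE replicate 1 was low for Rgs2 at 243 (289 to 309), Adcy8 at 0.454 (0.89 to 1.24), Edem3 at 10.2 (18.1 to 20.9) and Sec24b at 29.8 (37.0 to 40.5). Healthy replicate 4 was low for Atp2b2 at 36.8 (43.3 to 45.5), Klf9 at 7.41 (12 to 13.8) and Kdm6a at 3.82 (7.74 to 10.4). Healthy replicate 20 was high for Ptprc at 46.6 (28.5 to 33.0) and Lair1 at 618 (519 to 549). Control EAE replicate 1 was high for Smpd2 at 35.2 (28.1 to 29.9) and Usp11 at 18.1 (12.4 to 14.1). Healthy replicate 19 was low for Nlrc5 at 1.79 (3.37 to 4.49). Healthy replicate 12 was high for Rgs16 at 2.12 (0.739 to 1.07). Healthy replicate 19 was high for Hcst at 2.74 (1.77 to 2.07). Control EAE replicate 9 was high for Nr1d1 at 22 (16.3 to 17.6). Healthy replicate 12 was low for Exosc3 at 9.42 (11.1 to 12.1). Control EAE replicate 9 was low for Jag2 at 0.422 (1.13 to 1.63). Healthy replicate 20 was low for Gda at 0 (0.107 to 0.289). The median log2 CPM of the shortest of 10 bins of transcript length minus the longest was high in healthy replicate 4, at -0.819 against -1.08 to -1.0 in the other 5.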

How the results depend on the processing

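Scaling was the choice that moved the counts of calls. With library totals alone, 2604 genes were higher and 8649 lower against 5314 and 5138, and 1259 and 4003 at 2-fold against 2024 and 2112. Under the same setting list medians above 0 turned to -0.21 (actin proteins), -0.23 (tetraspanins), -0.32 (IRF and STAT factors, nucleoporins, purine and pyrimidine metabolism), -0.11 (KLF and C/EBP factors, spliceosome, ubiquitin-conjugating enzymes), -0.19 (RNA polymerase II, fatty acid oxidation), -0.14 (SR proteins and hnRNPs), -0.27 (TCA cycle), -0.24 (peroxisome, COP coats), -0.21 (sphingolipids), -0.06 (translocon), -0.16 (folding), -0.20 (SNAREs) and -0.40 (RNA decay, from 0.01), that of cell death genes to -0.00, and Ptpn18 to -0.05. Subtracting genes of like length turned the chromatin remodellers to 0.15. Kif13b, not called at -0.16, was 0.07 without control EAE replicate 10 and -0.27 without control EAE replicate 2. With each library left out in turn, 5106 to 5347 genes were higher, 4908 to 5280 lower, 1845 to 2108 at least 2-fold higher and 2057 to 2240 at least 2-fold lower. RLE factors, DESeq2, other filters, the 12 libraries alone, the number runs and leaving out Apoe each kept these 4 counts within 1.5 times. No paired analysis was possible because the groups share no replicate numbers. The runs of label numbers, which pair no libraries, gave 5388 higher and 5305 lower as a covariate. The labels give no batch, RNA integrity or time of collection, and counting error is small beside the spread between libraries at these depths for all but rare genes.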
